A study of Mus musculus with 6 samples.

Results

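Levels of potassium channel genes were measured by sequencing of single nuclei from the hypothalamus of mice, a region of the brain that governs feeding, sleep and hormone release. Members were the genes whose symbol starts with Kcn, leaving out symbols that end in -as or os, by which opposite-strand transcripts are named, and were found by symbol alone. This gave 95 of the 27514 genes that the 3 pools share, among 99 symbols with that start. Of the 95, 40 encode alpha subunits of voltage-gated channels, 15 inward rectifiers, 14 K2P leak channels, 8 the calcium- and sodium-activated channels with their pH-gated relative Kcnu1, and 17 auxiliary or regulatory proteins. The remaining member, Kcnq1ot1, is a long non-coding RNA read antisense to Kcnq1 that codes for no channel, and was kept because its symbol has neither ending. All 95 had a UMI in neurons, and 79 had at least 50 UMIs over the 6 sums described next.

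Potassium channels let potassium leave the neuron and so hold its resting potential, shorten its spikes and set how often it fires. Voltage-gated subunits assemble as tetramers and carry auxiliary proteins that change their gating, while G protein-gated inward rectifiers open when inhibitory receptors are active. In hypothalamic neurons that sense metabolic signals, a channel built of an inward rectifier and a sulfonylurea receptor closes when ATP is high.

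The mice were labelled hfd and DIO, diet-induced obesity (DIO), chow-fed ob/ob, which lack functional leptin (OB), or chow-fed (chow), and each group received rapamycin, an inhibitor of the mTORC1 kinase, or vehicle. Nuclei positive for NeuN, a protein of neuronal nuclei, were sorted, and 1 droplet library was made per group, with 1 hashtag for rapamycin and 1 for vehicle. Strain, age, sex, dose and the number of mice behind a hashtag are not given in the sources used here. UMIs were therefore summed over neurons of each hashtag, which gave 6 sums, and a level, in CPM, is the UMIs of a gene scaled to a sum of 1000000 UMIs. UMIs are molecular tags that count RNA molecules.

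Neurons of the sums numbered 5768 and 4278 for DIO rapamycin and vehicle, 4578 and 1517 for OB, and 4674 and 4949 for chow. The sums held 34184747 and 29108654 UMIs in DIO, 16087353 and 6050593 in OB, and 29949105 and 31529417 in chow. Per the file headers, the OB library was made with another Cell Ranger version and another set of gene models than DIO and chow. Group, library and, for OB, software version cannot be told apart. The libraries shared 31 to 38 cell barcodes with each other. Kcn genes took 1.53% of all UMIs in DIO, 1.38% in OB and 1.40% in chow. Hashtag calls also differed: in OB 3602 barcodes stayed without a call, against 330 in DIO and 190 in chow. HTODemux called 2420 OB vehicle nuclei, where the ratio of the tags, used as an alternative, called 5513. OB vehicle neurons therefore numbered 1517 in the sums and 3822 by tag ratio. Microglial markers (5 of 5 measured) summed to 134 to 158 CPM in DIO neuron sums, 150.4 to 182 in OB and 112 to 114 in chow, with C1qa and Tmem119 at 0 in at least 1 sum. Pituitary markers (5 of 5 measured) summed to 7.04 to 7.49 CPM in DIO, 12.1 to 29.4 in OB and 1.54 to 2.03 in chow, with Prl at 0 in at least 1 sum. Astrocyte markers (5 of 5 measured, none at 0) summed to 5.63 to 5.73 CPM in DIO, 14.3 to 15.7 in OB and 5.64 to 5.87 in chow. Oligodendrocyte markers (5 of 5 measured, none at 0) summed to 4.40 to 4.89 CPM in DIO, 18.0 to 20.2 in OB and 6.85 to 7.28 in chow. Mural cell markers (5 of 5 measured, none at 0) summed to 30.7 to 35.1 CPM in DIO, 34.9 to 41.5 in OB and 22.7 to 23.4 in chow. Ependymal and tanycyte markers (5 of 5 measured) summed to 15.2 to 16.8 CPM in DIO, 26.4 to 28.9 in OB and 16.7 in both chow sums, with Rax at 0 in at least 1 sum. The part of these cells in the pool differences below was not tested.

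Upstream sequence is shown for the members that stood apart in a named neuron class, described below, and whose window of 250 bases before the RefSeq start lies wholly outside the annotated gene. These were Kcnh8, highest in suprachiasmatic neurons, Kcnj9, highest in mammillary neurons, and Kcnn3, lowest in mammillary neurons. The windows come from RefSeq on GRCm38.p6, and read 5′ to 3′ on the strand of the gene. Capitals mark matches on either strand to the letters GGGCGG, known as the GC box, or to TATAAA, known as the TATA box.
Kcnh8 (chr17:52602459-52602708, plus strand): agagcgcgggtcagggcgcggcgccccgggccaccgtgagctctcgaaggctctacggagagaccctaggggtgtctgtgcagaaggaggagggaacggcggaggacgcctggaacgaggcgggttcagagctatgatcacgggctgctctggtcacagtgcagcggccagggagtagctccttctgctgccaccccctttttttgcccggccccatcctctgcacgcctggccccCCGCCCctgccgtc
Kcnj9 (chr1:172329323-172329572, minus strand): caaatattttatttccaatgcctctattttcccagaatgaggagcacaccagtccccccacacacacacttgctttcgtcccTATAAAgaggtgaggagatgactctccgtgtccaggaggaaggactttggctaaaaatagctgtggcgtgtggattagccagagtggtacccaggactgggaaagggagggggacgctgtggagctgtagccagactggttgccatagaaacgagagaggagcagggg
Kcnn3 (chr3:89519914-89520163, plus strand): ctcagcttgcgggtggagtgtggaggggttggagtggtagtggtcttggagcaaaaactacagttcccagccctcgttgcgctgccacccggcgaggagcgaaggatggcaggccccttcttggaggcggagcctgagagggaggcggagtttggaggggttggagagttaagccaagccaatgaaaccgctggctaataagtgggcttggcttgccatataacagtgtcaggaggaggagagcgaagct
The Kcnh8 window held 1 GC box and no TATA box, and 68.4% of its bases were G or C. The Kcnj9 window held 1 TATA box and no GC box, with 52.0% G or C, and the Kcnn3 window held neither motif, with 58.8%. Of 32851 windows of this length, 32.7% held the GC box letters and 12.4% the TATA box letters, and their median content of G and C was 52.4%. The letters ACGTG, the core of motifs bound by circadian and hypoxia factors, were in none of the 3 windows and in 16.6% of all windows.

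Levels carry no correction for gene length, so each member is compared only with itself. Kcnip4, which encodes a calcium-binding partner of A-type channels, is annotated over 1135620 bases of chromosome 5 and supplied 34.4% of all Kcn UMIs in neurons. A median of at least 10 CPM over the 6 sums was reached by 44 members and of at least 100 CPM by 18, while 27 stayed under 1 CPM.

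Of the pore subunits of the ATP-sensitive channel, Kcnj8 was at the limit of detection and Kcnj11 was sparsely counted. Kcnj8 stood at 0.0293 and 0.0344 CPM in the DIO rapamycin and vehicle sums, 0 and 0 in those of OB, and 0.0334 and 0.0634 in those of chow, where a value of 0 in an OB sum allows up to 3 UMIs of that sum. Kcnj11 stood at 0.0878 and 0 CPM in the DIO rapamycin and vehicle sums, 1.62 and 0.826 in those of OB, and 0.0668 and 0.0317 in those of chow. Of the 37 Kcnj11 UMIs in neurons, 31 were thus in OB, whose gene models differ. Its partner Abcc8, the sulfonylurea receptor of neurons and beta cells, stood at 25.3 and 24.2 CPM in the DIO rapamycin and vehicle sums, 19.4 and 21.3 in those of OB, and 20.8 and 20.5 in those of chow, and Abcc9, the receptor of muscle and vessels, at 0.322 and 0.550 CPM in the DIO rapamycin and vehicle sums, 0.249 and 0.661 in those of OB, and 0.534 and 0.507 in those of chow. Differences in Kcnj8 between the sums were not detectable at this depth.

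Neurons were clustered without the Kcn genes, so their levels by class were not used to make the classes. A cluster was named where at least 3 markers of a list were over 3-fold above all other nuclei and in over 10% of its own, with 1 among its 10 leading genes. The 10 named neuron classes ranged from 269 nuclei (kisspeptin and neurokinin B) to 1996 (mammillary), while no cluster met the rule for Pomc or ventromedial neurons. A member was set apart in a class when its lowest sum in the class lay above, or its highest sum below, every sum of the other 9 classes. No test is attached, because cells of 1 library share their source.

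**Figure D1:**
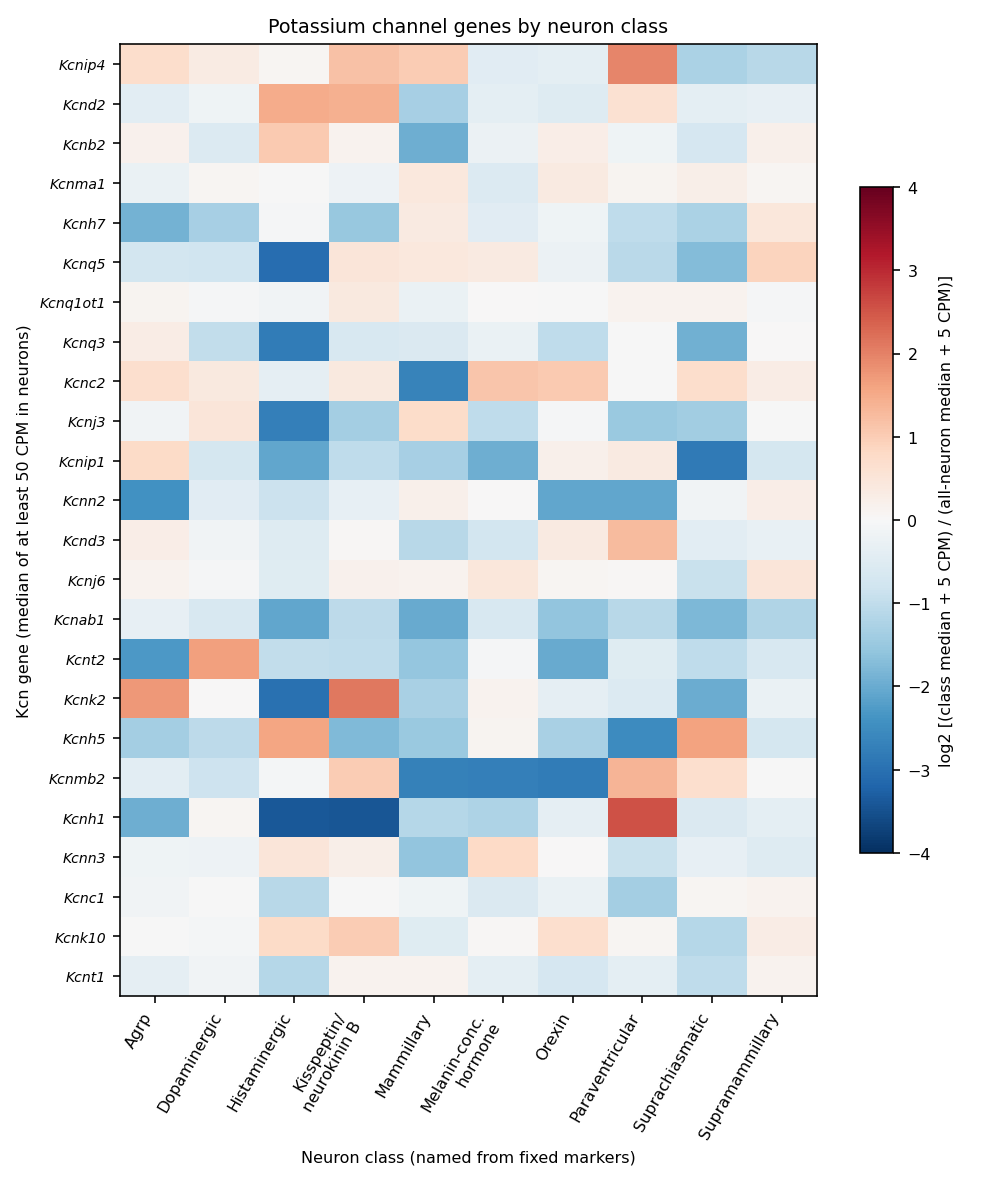
Heat map of 24 Kcn genes with a median of at least 50 CPM in neurons (rows) in the 10 named neuron classes (columns), as the log2 ratio of the class median to the all-neuron median after 5 CPM were added to both. Kcnh1 is deepest red in paraventricular neurons and Kcnq3 and Kcnq5 are blue in histaminergic neurons.

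The paraventricular class, with 634 nuclei marked by Sim1, Otp, Oxt and Avp but with a median of 0 CPM for Crh, Trh and Brs3, had 3 of the 79 measured members above every other class, where 0.459% of 17202 genes were. Kcnh1, a voltage-gated channel of the ether-a-go-go family (chr1:192189144-192510159 in RefSeq's annotation of GRCm38.p6, as for the genes below), stood at 762 and 769 CPM in the DIO rapamycin and vehicle sums, 552 and 520.2 in those of OB, and 489.8 and 669 in those of chow. The highest value in any other class was 134 CPM, in orexin neurons. Kcnmb4, the beta subunit that slows BK channels and makes them resist iberiotoxin, stood at 139 and 143 CPM in the DIO rapamycin and vehicle sums, 124 and 132 in those of OB, and 180.5 and 163 in those of chow. No other class exceeded 33.1 CPM. Kcnip4 stood at 16353 and 20775 CPM in the DIO rapamycin and vehicle sums, 22207 and 25419 in those of OB, and 17597 and 18535 in those of chow, against at most 12640.1 CPM in kisspeptin and neurokinin B neurons. The median paraventricular level was 6.15 times the all-neuron median for Kcnh1, 7.73 times for Kcnmb4 and 3.87 times for Kcnip4. That all 6 sums, obese and lean, rapamycin and vehicle, shared these positions follows from the rule that set members apart.

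Dopaminergic and suprachiasmatic neurons each had 1 member above every other class, where 0.122% and 0.308% of genes were. In dopaminergic neurons, Kcnt2, the sodium-activated channel also called Slick (chr1:140245657-140614045), stood at 632 and 457 CPM in the DIO rapamycin and vehicle sums, 419.6 and 557 in those of OB, and 561 and 529 in those of chow. Its highest value elsewhere was 191 CPM, in melanin-concentrating hormone neurons. In suprachiasmatic neurons, Kcnh8, a voltage-gated channel of the Elk group, stood at 788 and 704 CPM in the DIO rapamycin and vehicle sums, 619 in the OB rapamycin sum, and 517 and 523 in those of chow. The OB vehicle sum held too few suprachiasmatic nuclei to be used. That margin was narrow: 1 sum of the kisspeptin and neurokinin B class reached 516 CPM against a suprachiasmatic minimum of 517 CPM.

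Mammillary neurons carried members at both ends, with 2 members above every other class (0.628% of genes) and 3 below (0.145%). In mammillary neurons, Kcnj9, a subunit of G protein-gated inward rectifiers, stood at 52.7 and 51.5 CPM in the DIO rapamycin and vehicle sums, 49.7 and 62.4 in those of OB, and 43.8 and 43.1 in those of chow, against at most 39.5 CPM elsewhere. Kcnab3, a cytoplasmic beta subunit of voltage-gated channels, ranged over 12.3 to 22.7 CPM (median 18.4). Kcnc2, a fast delayed rectifier of rapidly firing neurons, stood at 45.2 and 97.1 CPM in the DIO rapamycin and vehicle sums, 66.3 and 48.2 in those of OB, and 69.02 and 60.5 in those of chow, against at least 249 CPM in any other class. Kcnb2, a slow delayed rectifier, ranged over 243 to 442 CPM (median 279.7), and Kcnn3, a small-conductance calcium-activated channel, over 21.9 to 28.4 CPM (median 24.5). The median in mammillary neurons was 0.148 times the all-neuron median for Kcnc2, 0.255 times for Kcnb2 and 0.298 times for Kcnn3.

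**Figure D2:**
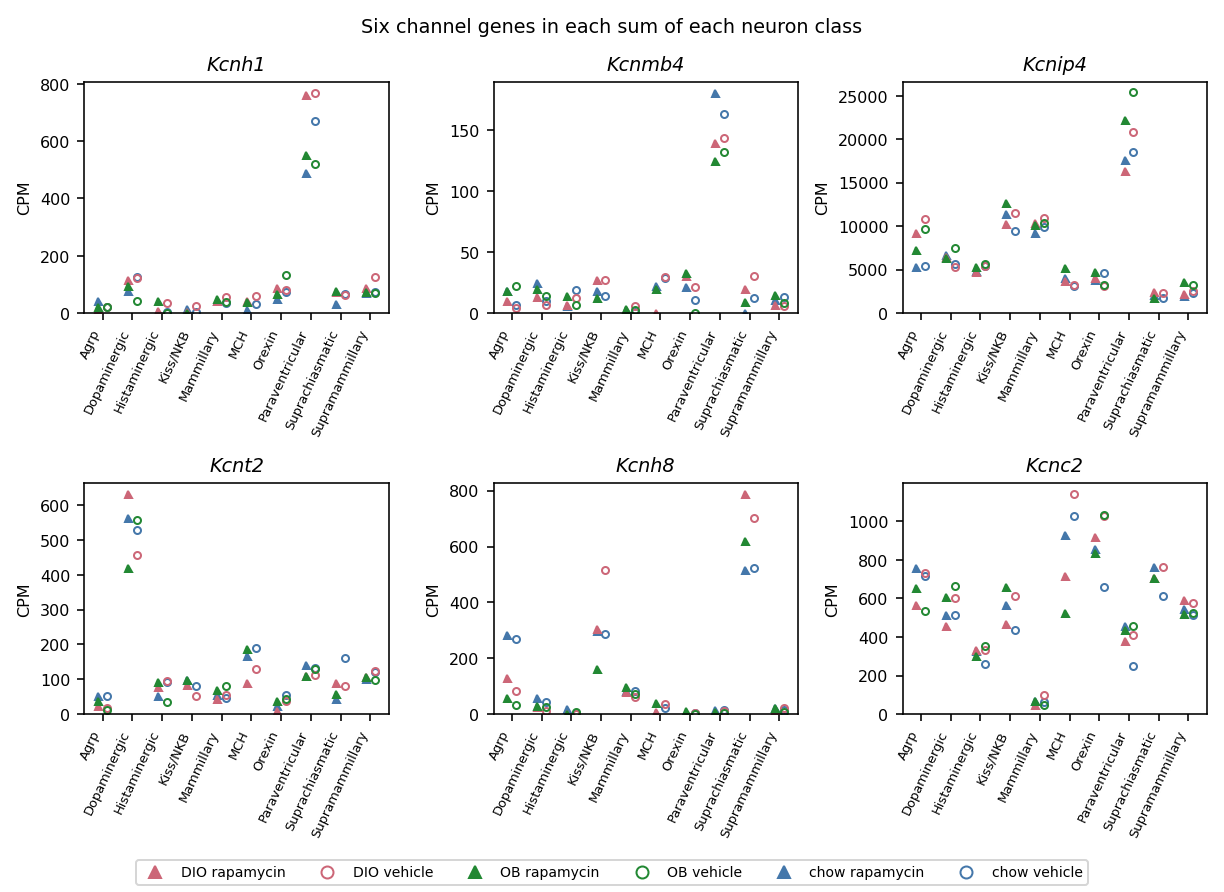
Levels in CPM of Kcnh1, Kcnmb4, Kcnip4, Kcnt2, Kcnh8 and Kcnc2 (1 panel each, from 0) in every sum of the 10 named neuron classes, where filled triangles are rapamycin, open circles vehicle, and colours the pools. Paraventricular sums stand above all others for Kcnh1, from 489.8 to 769 CPM, and mammillary sums below all others for Kcnc2, from 45.2 to 97.1 CPM.

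The members described next were picked with their values in view, and none of them was set apart from all other classes. In histaminergic neurons, Kcnd2, the main A-type pore subunit, ranged over 4939 to 7934 CPM (median 5994), and Kcnb2 over 1995 to 2514 CPM (median 2259.8). The M-current subunits were low there, Kcnq3 at 42.5 to 152 CPM (median 65.8) and Kcnq5 at 40.7 to 105 CPM (median 68.2), while over all neurons their medians were 487 and 601 CPM. Histaminergic neurons thus held the highest class median of Kcnd2 and of Kcnb2 and the lowest of Kcnq3 and of Kcnq5.

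Kcnk2, the mechanically gated leak channel TREK, was high in both arcuate classes. It ranged over 449 to 676 CPM (median 612) in kisspeptin and neurokinin B neurons and over 293 to 542 CPM (median 468) in Agrp neurons, against 11.4 to 30.3 CPM (median 13.1) in histaminergic neurons. The arcuate classes overlapped each other. Kcnip1, another partner of A-type channels, ranged over 346 to 761 CPM (median 537) in Agrp neurons, where Kcnn2, a small-conductance calcium-activated channel, was at 22.7 to 55.4 CPM (median 40.7). Kcng3, a subunit that forms no channel alone but modifies other voltage-gated channels, ranged over 39.4 to 130.0 CPM (median 73.4) in melanin-concentrating hormone neurons, and its all-neuron median was 5.75 CPM.

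Among all 34 neuronal clusters with at least 3 usable sums, named or not, 8 of 79 members had 1 cluster whose every sum exceeded every sum of the others, where 2.52% of 17202 genes did. Kcnmb2, the beta subunit that inactivates BK channels, stood at 601 to 1101 CPM in an unnamed glutamatergic cluster of 185 nuclei led by E2f7, Prkch and Htr1f. Elsewhere it reached at most 421 CPM. The same cluster was highest for Kcnn2, at 608 to 694 CPM, and for Kcns3, a silent modifier subunit, at 74.00 to 81.9 CPM against at most 51.4 CPM elsewhere. Kcnb2 was highest in a glutamatergic cluster led by Ccbe1 and Fli1, at 3174 to 3455 CPM. Kcnq3 was highest in a glutamatergic cluster led by Ust and Bcl11b, at 1304 to 1741 CPM, though other clusters reached 1276 CPM. The remaining 3 were Kcnh1 and Kcnmb4 in the paraventricular cluster and Kcnh8 in the suprachiasmatic one. Kcnip4, set apart in the paraventricular class among named classes only, was not among the 8. Kcnt2, Kcnj9 and Kcnab3 were not among them either, and their dopaminergic and mammillary classes each join 2 clusters.

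Not all inward rectifiers were neuronal. Kcnj10, the main potassium channel of astrocytes, had a median of 129 CPM in the 6 astrocyte sums (106 to 143) and 0.468 CPM in neurons (0.309 to 0.684). Kcnj16, which pairs with it, had 83.5 CPM in astrocytes (64.4 to 109) and 1.60 CPM in neurons (1.08 to 2.30). The groups of sums did not overlap for either gene. Among 4 astrocyte clusters, 1, with 354 of 1828 nuclei, also held neuronal RNA: its nuclei had a median of 4760.5 UMIs, against 1273 to 2000 in the other astrocyte clusters, and 22.9% were glutamatergic and 35.0% GABAergic by their transmitter genes. Without it, a choice made after the data were seen, the astrocyte median was 180.0 CPM for Kcnj10 (152 to 202) and 109 CPM for Kcnj16 (92.9 to 140.2). Neuronal values of both stand beside the astrocyte marker sums given above, whose part in them was not tested.

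Glutamatergic neurons were next set against GABAergic neurons, each nucleus placed by whether it held UMIs of vesicular glutamate transporters or of GABA synthesis and transport genes, and not of both. With the sum of origin as a block, edgeR's quasi-likelihood test over 14938 genes called none of the 69 tested members at least 2-fold higher and 2 at least 2-fold lower in glutamatergic neurons, at an adjusted p of at most 0.05. Of all genes, 1.76% were called higher and 0.971% lower. Kcnt2 stood at 93.05 to 119 CPM (median 105) in glutamatergic sums and 225 to 289.5 CPM (median 253) in GABAergic sums, a log2 fold change of -1.23 ± 0.031 (SE; adjusted p = 1.9e-23), and was lower in 6 of 6. Kcng1, another silent modifier subunit, stood at 0 to 1.88 CPM (median 1.19) in glutamatergic sums and 2.17 to 3.96 CPM (median 3.04) in GABAergic sums, a log2 fold change of -1.40 ± 0.24 (adjusted p = 4.3e-05), also lower in 6 of 6. The 6 sums are 2 hashtags from each of 3 libraries, and adjusted p-values treat them as separate samples.

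With no minimum size, 25 of 69 members were higher in glutamatergic neurons, where 11.6% of genes were, and 11 were lower, where 10.3% were. Without the chow pool, 6 of 68 members were lower, where 881 of 14634 genes were. The median log2 fold change was 0.12 over the members and -0.02 over all genes. M-current and A-type partner genes were among the members that were higher in all 6 sums with no overlap. Kcnq3 stood at 519 to 694 CPM (median 609) in glutamatergic sums and 319 to 435 CPM (median 353) in GABAergic sums (0.76 ± 0.031, adjusted p = 2.6e-18). Kcnq5 stood at 668 to 776 CPM (median 706) in glutamatergic sums and 448 to 532 CPM (median 488) in GABAergic sums (0.60 ± 0.030, adjusted p = 3.2e-16). Kcnip4 changed by 0.77 ± 0.026 and Kcnh7, of the Erg channel group, by 0.53 ± 0.030, both with no overlap (adjusted p = 2e-20 and 5.3e-15).

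All 4 neuronal subunits of G protein-gated inward rectifiers were higher in glutamatergic neurons. The log2 fold change was 0.28 ± 0.031 for Kcnj3 (adjusted p = 1.5e-08), 0.56 ± 0.14 for Kcnj5 (adjusted p = 0.00328), 0.44 ± 0.034 for Kcnj6 (adjusted p = 1.2e-11) and 0.29 ± 0.075 for Kcnj9 (adjusted p = 0.00468), and the sums of each overlapped. BK auxiliary genes parted, with Kcnmb4 at 18.4 to 27.5 CPM (median 23.1) in glutamatergic sums and 10.6 to 16.4 CPM (median 12.6) in GABAergic sums (0.96 ± 0.081, adjusted p = 6.9e-11) and Kcnmb2 at 72.1 to 95.9 CPM (median 84.7) in glutamatergic sums and 96.1 to 150.0 CPM (median 117) in GABAergic sums (-0.43 ± 0.045, adjusted p = 8e-09). The BK pore gene Kcnma1 changed by 0.20 ± 0.029 (adjusted p = 2.5e-06). The A-type pore genes Kcnd2 and Kcnd3 were lower, with log2 fold changes of -0.22 ± 0.032 and -0.17 ± 0.038 (adjusted p = 2.8e-06 and 0.00111), unlike their partner Kcnip4.

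**Figure D3:**
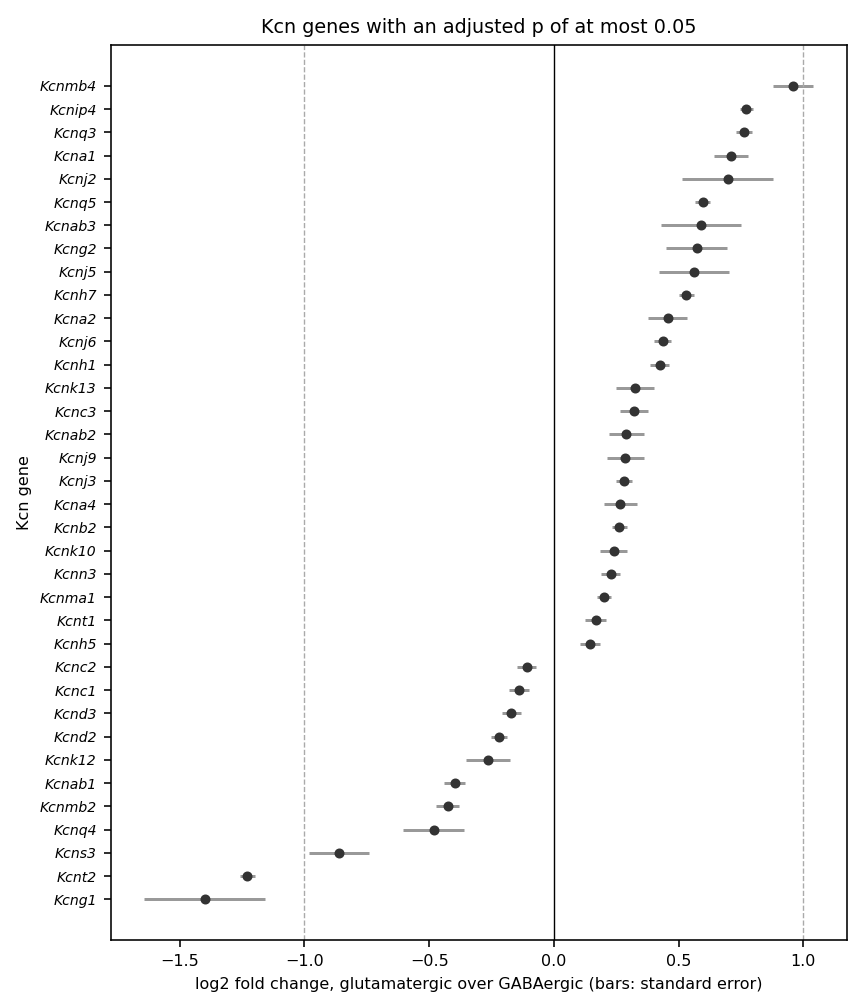
Log2 fold change, glutamatergic over GABAergic neurons, with standard error bars, for the 36 Kcn genes with an adjusted p of at most 0.05 (n = 6 sums of each class); dashed lines mark 2-fold. Of these, 25 lie right of 0 and 11 left of it, and only Kcnt2 and Kcng1 pass the left 2-fold line.

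Partner genes, 16 proteins that bind potassium channels or their regulators, were read beside the members, and 12 could be tested between transmitter classes. Rgs6 and Rgs7, which speed the closing of G protein-gated rectifiers, changed by 1.46 ± 0.043 and 0.59 ± 0.028 (adjusted p = 1.2e-21 and 1.6e-16). Of the partners of A-type channels, Dpp6 changed by 0.13 ± 0.026 and Dpp10 by -0.21 ± 0.031 (adjusted p = 0.00041 and 3.8e-06). Rgs6 alone passed 2-fold. By class, Rgs7 was set apart in mammillary neurons at 1558 to 1819 CPM (median 1700.1), and Abcc8 in orexin neurons at 63.6 to 107 CPM (median 81.8). Kcnj11 had no UMI in any of the 6 orexin sums. It was sparsely counted in all neurons, as given above, so this cannot tell whether orexin neurons lack it.

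Rapamycin was compared with vehicle inside each library and then across the 3 pools taken as replicates. Across pools, the edgeR test with the pool as a block called none of 79 members in all neurons, where 0.087% of 17235 genes were called higher and 0.238% lower. None of 70 members was called in glutamatergic neurons (0.00666% of 15009 genes higher, 0.0333% lower) and none of 69 in GABAergic neurons (0 higher and 0 lower of 15267 genes). At an unadjusted p under 0.05, 1 of 79 members was higher in all neurons (2.82% of all genes) and 3 were lower (2.71%). In glutamatergic neurons 2 of 70 were higher (2.39% of genes) and 2 lower (2.11%), and in GABAergic neurons 1 of 69 was higher (2.34%) and 4 lower (1.95%). DESeq2 called no member in any of the 3 sets, and none of all 17235, 15009 and 15267 genes. In all neurons the lowest p was that of Kcnmb4, with a log2 fold change of -0.25 ± 0.085 (SE, adjusted p = 0.368), lower in 3 of 3 pools.

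Inside a library the comparison is 1 sum against 1 sum, so it carries no test, and brackets give exact 95% intervals for counting error alone. Kcnip4 was the only member with an interval below 0 in all 3 pools. The share of all genes with such intervals was not counted. Counting intervals narrow with the count of a gene, and Kcnip4 supplied 34.4% of all Kcn UMIs in neurons. Kcnip4 stood at 5051 CPM in rapamycin neurons and 5784 in vehicle neurons of DIO, a log2 ratio of -0.20 (-0.21 to -0.19). The OB values were 5104 CPM in rapamycin neurons and 6248 in vehicle neurons, with a log2 ratio of -0.29 (-0.31 to -0.27). The chow values were 4757 CPM in rapamycin neurons and 4861 in vehicle neurons, with a log2 ratio of -0.031 (-0.042 to -0.021). The chow ratio was the closest to 0 of the 3. Across the pools its log2 fold change was -0.18 ± 0.08 (adjusted p = 0.733 in edgeR's test). Without the chow pool it was -0.27 ± 0.059 with an adjusted p of 0.00101, and it was then called lower in glutamatergic neurons (-0.21 ± 0.055, adjusted p = 0.0456) and in GABAergic neurons (-0.20 ± 0.039, adjusted p = 0.0243). It was then the 1 member called lower of 78 in all neurons, where 0.834% of 17031 genes were, of 66 in glutamatergic neurons (0.328% of 14334 genes) and of 68 in GABAergic neurons (0.297% of 14832 genes).

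Most other members did not have the same sign in the 3 pools. In DIO, 44 of 72 members (61.1%) were lower with rapamycin, against 40.6% of 15624 genes, and the members' median log2 ratio was -0.05 against 0.04 for all genes. In chow, 41 of 71 (57.7%) were higher, against 39.6% of 15374 genes, with a median of 0.02 against -0.03. In OB, 34 of 61 (55.7%) were higher, against 58.4% of 13577 genes. Of the members with a usable count in every pool, 17 of 61 had the same sign in all 3. That share was not counted over all genes, so it is not read as particular to the members. The median stayed below 0 in DIO glutamatergic neurons (-0.05) and DIO GABAergic neurons (-0.07), where 68.3% of 60 members were lower against 44.0% of 13524 genes.

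For 13 of the 69 members with a usable count in at least 2 pools (18.8%), pools had intervals on opposite sides of 0, where 7.59% of 15193 genes did. Such intervals narrow with the count of a gene, and Kcnc2 and Kcnmb2 are given here in full. Kcnc2 stood at 409.6 CPM in rapamycin neurons and 495 in vehicle neurons of DIO and at 458 CPM in rapamycin neurons and 416 in vehicle neurons of chow, log2 ratios of -0.27 (-0.31 to -0.24) and 0.14 (0.11 to 0.17). Kcnmb2 stood at 87.3 CPM in rapamycin neurons and 102 in vehicle neurons of DIO and at 115 CPM in rapamycin neurons and 97.6 in vehicle neurons of chow, log2 ratios of -0.22 (-0.29 to -0.14) and 0.23 (0.16 to 0.30). In OB, Kcnmb2 had a log2 ratio of 0.078 (-0.059 to 0.22). Both genes were thus lower with rapamycin in DIO and higher with it in chow, beyond counting error. The difference between pools was not tested.

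By size, the members with the highest and lowest ratios were mostly sparsely counted. In DIO, Kcnj4 had the lowest ratio, -1.06 (-1.98 to -0.19), from 18 and 32 UMIs, and Kcnk6 the highest, 0.68 (0.13 to 1.25). Kcna6, a low-threshold delayed rectifier, was the lowest of those counted over 1000 times, at 32.1 CPM in rapamycin neurons and 40.5 in vehicle neurons, a log2 ratio of -0.33 (-0.45 to -0.21). In OB, Kcnk4 had the highest ratio, 0.88 (-0.067 to 1.97), and Kcnj5 the lowest, -0.56 (-1.13 to 0.029), both with intervals that include 0. Kcnk12, a silent K2P subunit, stood at 15.5 CPM in rapamycin neurons and 9.92 in vehicle neurons of OB, a log2 ratio of 0.65 (0.24 to 1.08), and at -0.26 (-0.48 to -0.048) in chow. In chow, Kcnj16 had the highest ratio, 0.74 (0.096 to 1.41), and Kcnk7 the lowest, -0.63 (-1.54 to 0.24).

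**Figure D4:**
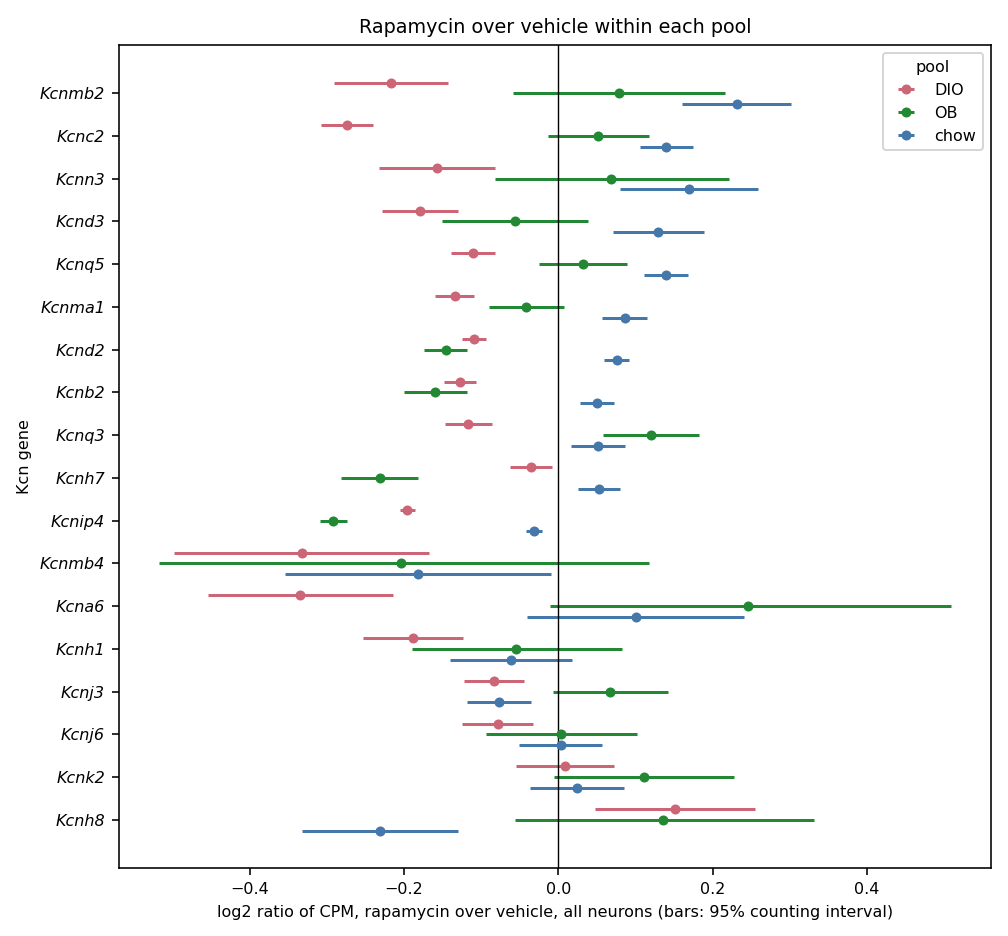
Log2 ratio of CPM, rapamycin over vehicle, in all neurons of each pool for 18 Kcn genes, with bars for the exact 95% counting interval. Kcnip4 lies left of 0 in all 3 pools, while Kcnmb2 and Kcnc2 lie left of 0 in DIO (-0.22 and -0.27) and right of it in chow (0.23 and 0.14).

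In Agrp neurons, which drive feeding, Kcnmb2 went the other way in DIO. It stood at 103 CPM in rapamycin neurons and 45.4 in vehicle neurons of DIO, from 53 and 22 UMIs, a log2 ratio of 1.19 (0.45 to 1.98). In OB it had 29 and 8 UMIs and a log2 ratio of 0.41 (-0.76 to 1.75), and in chow 89 and 41 UMIs and 1.04 (0.49 to 1.61). Rapamycin values were thus above vehicle values in all 3 pools, with intervals above 0 in DIO and chow. The share of all genes with that pattern was not counted. Agrp and Npy, markers of the class, were also higher in the rapamycin sum of all 3 pools, at levels given below. The part of this marker difference in the Kcnmb2 ratios was not tested. Kcnd2 stood at 1650.5 CPM in rapamycin neurons and 2403 in vehicle neurons of DIO Agrp neurons with a log2 ratio of -0.54 (-0.67 to -0.41), and had log2 ratios of -0.35 (-0.61 to -0.086) in OB and 0.22 (0.074 to 0.36) in chow. Whether the effect of rapamycin differed between transmitter classes was tested by an interaction term, which called none of the members and none of 15688 genes (0%). Its lowest p among the 72 members tested was 0.000340, for Kcnk2 (adjusted p = 0.434 in edgeR's test).

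Vehicle neurons of the obese pools were then set against vehicle neurons of chow, with no test. The same vehicle sums were the denominators of the rapamycin ratios above. A high or low vehicle sum therefore enters both comparisons, and their values are not independent. In DIO, 22 of 72 members were at least 25% higher (30.6%), where 15.9% of 15456 genes were, and 4 were at least 20% lower (5.56%), where 22.3% were. The median log2 ratio was 0.15 over the members and -0.04 over all genes. Of the 22, 20 had an interval without 0 (90.9%), against 83.9% of the 2461 genes that were at least 25% higher, and in 20 both DIO sums exceeded both chow sums, against 89.7% of those genes. The same direction held in glutamatergic neurons, with 24 of 59 (40.7%) higher against 14.6% of 13029 genes, and in GABAergic neurons, with 18 of 59 (30.5%) against 15.1% of 13361 genes. In both transmitter classes 16 of 58 members passed that size (27.6%), where 8.76% of 12837 genes did. Over all 79 members, both DIO sums exceeded both chow sums in 35, where 33.7% of genes did, and lay below them in 15, where 34.7% did.

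The 22 came from each of the channel families. Kcnab2, a beta subunit that brings voltage-gated channels to axons, stood at 22.3 and 25.5 CPM in the DIO rapamycin and vehicle sums, 18.03 and 18.7 in those of OB, and 14.6 and 13.2 in those of chow. Its log2 ratio of DIO over chow vehicle neurons was 0.95 (0.78 to 1.13), the highest of the 72 members with enough UMIs. Kcnd3, an A-type pore gene, stood at 202 and 228 CPM in the DIO rapamycin and vehicle sums, 200.4 and 208 in those of OB, and 160.0 and 146 in those of chow [log2 ratio 0.64 (0.59 to 0.70)]. Both chow sums lay below both sums of either obese pool for these genes. Kcnn3 stood at 86.2 and 96.2 CPM in the DIO rapamycin and vehicle sums, 84.2 and 80.3 in those of OB, and 69.6 and 61.9 in those of chow, and Kcnma1 at 747 and 819.6 CPM in the DIO rapamycin and vehicle sums, 752 and 774 in those of OB, and 647 and 609 in those of chow. Kcnj6, a G protein-gated rectifier, stood at 237 and 250.3 CPM in the DIO rapamycin and vehicle sums, 193 and 193 in those of OB, and 181 and 180.1 in those of chow, and Kcnq3 at 529 and 574 CPM in the DIO rapamycin and vehicle sums, 507 and 467 in those of OB, and 439 and 423 in those of chow. For these 4 the DIO vehicle sum was the highest of the 6 sums, and the log2 ratios were 0.64 (0.55 to 0.72), 0.43 (0.40 to 0.46), 0.47 (0.42 to 0.52) and 0.44 (0.41 to 0.47). Among the K2P leak channels, Kcnk13 and Kcnk3 had log2 ratios of 0.54 (0.38 to 0.70) and 0.50 (0.28 to 0.71).

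Other log2 ratios among the 22 were Kcna6 at 0.63 (0.50 to 0.76) and Kcnh1 at 0.62 (0.54 to 0.69). The 4 lower members, Kcnrg, Kcna5, Kcnv1 and Kcnj2, were sparsely counted, and the intervals of all 4 included 0. Kcnh8 was the lowest of those counted over 1000 times, at 51.02 and 45.9 CPM in the DIO rapamycin and vehicle sums, 53.6 and 48.8 in those of OB, and 48.4 and 56.8 in those of chow [log2 ratio -0.31 (-0.41 to -0.20)]. Giving each cluster the same weight in both sums compared, in proportion to its UMIs in them together, kept the direction of all 22 and of all 4. It moved the median log2 ratio to 0.14.

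**Figure D5:**
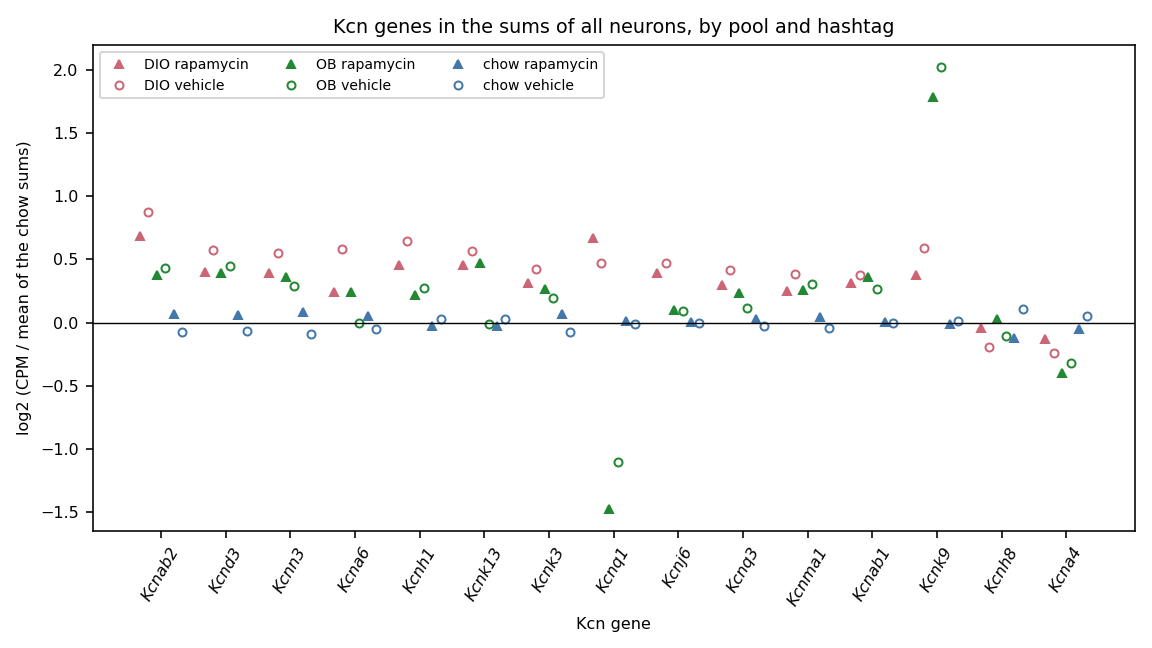
Log2 of CPM over the mean of both chow sums for 15 Kcn genes in all neurons, where filled triangles are rapamycin, open circles vehicle, and colours the pools. DIO points lie above 0 for the first 13 genes, and in OB Kcnk9 lies highest (16.04 and 18.8 CPM) and Kcnq1 lowest (4.35 and 5.62 CPM).

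In OB vehicle neurons the members did not lean to one side as they did in DIO. Of 66, 11 were at least 25% higher (16.7%), where 15.8% of 14543 genes were, and 10 at least 20% lower (15.2%), where 19.5% were. Kcnk9, an acid-sensitive leak channel of the TASK group (chr15:72501873-72548614), stood at 6.03 and 6.97 CPM in the DIO rapamycin and vehicle sums, 16.04 and 18.8 in those of OB, and 4.61 and 4.66 in those of chow. It was the 1 member at least 2-fold above all 4 other sums in both OB sums, where 1.04% of 17202 genes were, with a log2 ratio of 2.01 (1.65 to 2.38) over chow vehicle. Kcnq1, a slow delayed rectifier best known from heart, stood at 19.2 and 16.8 CPM in the DIO rapamycin and vehicle sums, 4.35 and 5.62 in those of OB, and 12.2 and 12.02 in those of chow, and was the 1 member at least 2-fold below all 4 others, where 0.564% of genes were [log2 ratio -1.10 (-1.65 to -0.59)]. With the OB vehicle nuclei called by tag ratio, the log2 ratios were 1.87 for Kcnk9 and -1.14 for Kcnq1. Whether mouse group or gene models set these OB values cannot be told apart. The low-threshold channels Kcna1 and Kcna2 had log2 ratios of -0.52 (-0.80 to -0.24) and -0.63 (-1.004 to -0.28). The non-coding Kcnq1ot1 stood at 536 and 609.9 CPM in the DIO rapamycin and vehicle sums, 469 and 489 in those of OB, and 623 and 648 in those of chow. DIO and OB were set against the same chow sums, so their values are not independent of each other.

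In Agrp neurons the obese pools parted from chow in opposite directions for several members. These were chosen after their values were seen. In 6 of the 33 members with at least 50 UMIs (18.2%), both DIO sums exceeded both chow sums and both chow sums exceeded both OB sums, where 3.16% of 7711 genes had that order. The opposite order was found for 2 members, Kcnma1 and Kcnn2 (6.06%), where 3.75% of genes had it. The 6 were the M-current subunits Kcnq3 and Kcnq5, the G protein-gated rectifiers Kcnj3 and Kcnj6, the delayed rectifier Kcnb2 and the beta subunit Kcnab1.

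In Agrp neurons, Kcnq3 stood at 974 and 996 CPM in the DIO rapamycin and vehicle sums, 196 and 321 in those of OB, and 582 and 611 in those of chow. Kcnj3 stood at 496 and 579.6 CPM in the DIO rapamycin and vehicle sums, 154 and 233 in those of OB, and 289 and 297 in those of chow. Kcnb2 stood at 1846 and 2354 CPM in the DIO rapamycin and vehicle sums, 596 and 714 in those of OB, and 1152 and 1298 in those of chow. For all 6 members with this order the DIO, chow and OB sums did not overlap, by the rule that picked them. Kcnj6 stood at 298 and 285 CPM in the DIO rapamycin and vehicle sums, 132 and 177 in those of OB, and 234 and 196 in those of chow, and Kcnq5 at 386 and 745 CPM in the DIO rapamycin and vehicle sums, 95.2 and 260.2 in those of OB, and 346 and 379 in those of chow. Kcnma1, the BK pore gene, ran the other way, at 558 and 575 CPM in the DIO rapamycin and vehicle sums, 1025 and 897 in those of OB, and 663 and 581 in those of chow. These sums held 95 and 81 nuclei in DIO, 143 and 48 in OB, and 80 and 70 in chow. Agrp itself stood at 256 and 179 CPM in the DIO rapamycin and vehicle sums, 658 and 233 in those of OB, and 468 and 316 in those of chow, and Npy at 33.2 and 24.8 CPM in the DIO rapamycin and vehicle sums, 385 and 127 in those of OB, and 114 and 58.1 in those of chow. The part of these shifts in marker level in the order of the channel genes was not tested. With tag ratio hashtag calls, chosen as an alternative after the data were seen, the same 6 members had the order DIO, chow, OB and none had the opposite one. With coarser clusters, whose Agrp class held 1279 nuclei against 603, Kcnj3 and Kcnj6 lost the order while Kcnh1 and Kcnq1 gained it.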

How the data were processed

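Gene expression and hashtags were measured in 3 pooled libraries. The matrices that the authors deposited give UMI counts, not normalized, made with Cell Ranger on mm10 per the submitters' processing notes; the version was 6.0.0 for DIO and chow and 7.0.1 for OB per the file headers. Members and lists were chosen with earlier results of these data known.

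Nuclei needed 500 UMIs, 300 genes and under 5% mitochondrial UMIs, which removed 1 barcode. Hashtags were called with HTODemux (Seurat 5.3.0, R 4.3.3), and doublets between hashtags and uncalled nuclei were left out. No other doublet caller was run, and doublets of nuclei with the same hashtag were not removed; an astrocyte cluster (354 nuclei) and an oligodendrocyte cluster (143) that also held neuronal RNA stayed outside the neuron sums. Clusters (scanpy 1.11.5, leidenalg 0.10.2, Python 3.11.15) used 3000 variable genes without Kcn genes, resolution 1, and numbered 61, of which 38 were neuronal. Class sums needed 20 nuclei.

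Tests used edgeR 4.0.16 (quasi-likelihood, TMM, filterByExpr) and DESeq2 1.42.0 on sums of the deposited counts, and were tested on simulated data; p-values measure the spread between sums, which may be technical. Ratios have exact Clopper-Pearson intervals, needed 50 UMIs, and treat UMIs as independent. All 95 members matched RefSeq coordinates and 70 a promoter window. The text names called members, the 5 highest and 5 lowest ratios where there is no test, members set apart in a class, and a preset list that includes Kcnmb2, Kcnj8 and Kcnj11; others were chosen after their values were seen. Values of some members are not reported here.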

Additional observations from a re-analysis of the deposited data

Results flagged for a closer look

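For 13 members the log2 ratio of rapamycin over vehicle in all neurons had a counting interval above 0 in 1 pool and below 0 in another, out of 69 with a usable count in at least 2 pools (18.8%); of 15193 genes, 7.59% did so. The difference between the pools was not tested, since each pool is 1 library. Kcnb2 had -0.13 in DIO, -0.16 in OB and 0.050 in chow. Kcnc2 had -0.27 in DIO and 0.14 in chow. Kcnd2 had -0.11 in DIO, -0.15 in OB and 0.076 in chow. Kcnd3 had -0.18 in DIO and 0.13 in chow. Kcnh7 had -0.036 in DIO, -0.23 in OB and 0.053 in chow. Kcnh8 had 0.15 in DIO and -0.23 in chow. Kcnj13 had 0.23 in DIO and -0.24 in chow. Kcnk12 had 0.65 in OB and -0.26 in chow. Kcnma1 had -0.13 in DIO and 0.086 in chow. Kcnmb2 had -0.22 in DIO and 0.23 in chow. Kcnn3 had -0.16 in DIO and 0.17 in chow. Kcnq3 had -0.12 in DIO, 0.12 in OB and 0.052 in chow. Kcnq5 had -0.11 in DIO and 0.14 in chow.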

How the results depend on the processing

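Leaving out each pool in turn gave 0 to 1 Kcn genes called lower with rapamycin in all, in glutamatergic and in GABAergic neurons; the 1 call came without the chow pool and was Kcnip4, where 0.834%, 0.328% and 0.297% of all genes were called lower. In the comparison of glutamatergic with GABAergic neurons it gave 0 to 1 members at least 2-fold higher and 2 to 3 lower. The 1 came without chow or without OB. Of all genes, 272 to 302 were at least 2-fold higher and 142 to 156 lower, among 14574 to 15110 tested. With no minimum size, leaving out pools gave 19 to 26 members higher and 6 to 10 lower, against 25 and 11 with all pools. The 6 came without chow. Of all genes, 1231 to 1701 were then higher and 846 to 1452 lower, against 1733 and 1544 with all pools. With each cluster assigned to 1 transmitter class as a whole, 1 of 73 members was at least 2-fold higher, Kcnmb4, where 382 of 15763 genes were.

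The rapamycin effect on Kcnmb2 across pools was 0.023 with all pools, -0.0031 with tag ratio hashtag calls and -0.12 without the chow pool, with a range of -0.12 to 0.18 over pools left out; no value passed the test, and the cause was not tested. The 2 Agrp members with DIO below chow and chow below OB became 0 with tag ratio calls and 0 at resolution 0.5. RLE size factors, DESeq2 and no low-count filter kept every count of called members within 1.5 times. TMM-scaled library sizes and cluster weights matched between the sums compared were applied to ratios only. Both kept all 5 median log2 ratios of the members inside the interval of the main median. Of single-gene ratios, 10 moved outside their counting interval with TMM-scaled sizes and 145 stayed inside. With matched cluster weights, 19 moved outside and 136 stayed inside. At resolution 0.5, 12 class medians of set-apart genes stayed within a standard deviation of the main sums. Whether each class still lay beyond every other class at that resolution was not tested.

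Tests of rapamycin were paired by pool and tests of transmitter class by sum of origin. OB vehicle, with 1517 neurons, gives the widest intervals, and members under 50 UMIs could not be compared.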
